A study of Bos taurus with 9 samples.

Results

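The nuclear pore complex genes of cultured bovine endometrial cells were followed across hormone and interferon tau treatment. Members were found by gene symbol alone, as the symbols made of NUP and a number together with AAAS, NDC1, RAE1, SEH1L, SEC13, RANBP2, TPR, GLE1 and AHCTF1. The rule found 30 of the 17162 genes in the table, and 28 of them reached the level needed for testing, a mean of 0.5 FPKM over the 9 libraries (a read level scaled for the exon length of the gene and for the mapped reads of the library). NUP210, a membrane nucleoporin known for its restriction to some cell types, stood at 0.03 to 0.13 FPKM. Its relative NUP210L stood at 0 to 0.07 FPKM, and neither was tested. The family itself was chosen by a measured value, the FPKM of AAAS, which was about halved in the interferon-treated cells, so the values of AAAS in comparisons with that group are given as a description, with no test, and AAAS is left out of the counts there.

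The nuclear pore complex is the channel through the nuclear envelope by which proteins and RNA pass between the nucleus and the cytoplasm. Its scaffold is built from repeated copies of the Y complex and the inner ring, and it is held in the envelope by membrane nucleoporins. Nucleoporins rich in phenylalanine-glycine repeats fill the channel and bind transport receptors, filaments on the cytoplasmic side release exported RNA and protein, and a basket faces the chromatin. Interferon signalling relies on this gate because the STAT proteins that carry the signal must enter the nucleus and the induced mRNA must leave it.

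The RNA came from BEND, bovine endometrial cells that the study describes as primary epithelial cells of Holstein uteri, grown and passaged in culture. CON cells were left without hormone or interferon. GA cells received 1 nM E2 (oestradiol) and 100 nM P4 (progesterone), and how long they were kept beyond the 12 h hormone step is not stated. After the same 12 h with E2 and P4, GB cells were exposed to 100 ng/mL IFNT during another 12 h, IFNT being interferon tau, the type I interferon by which the ruminant conceptus signals its presence to the mother. Each group had 3 libraries, which the study calls biological replicates, but the sources do not state the donor or culture of each, so the p-values measure the spread between these samples, which may be technical. Nor is the time at which CON and GA were harvested stated for each, so IFNT and time in culture cannot be told apart in the comparisons with GB. The same holds for the time with hormone in GB vs. GA.

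Libraries of 1 group correlated at r = 0.989 to 0.991 on the log2 scale across genes, and no pair was identical. Canonical interferon-stimulated genes were used as a check of treatment, and 8 of 8 rose in GB with summed levels of 10437 to 10460 FPKM against 101 to 122 in CON and 118 to 128 in GA. Of 8 epithelial markers (KRT18, KRT8, KRT19, KRT7, CDH1, MUC1, CLDN4 and ESRP1), 0 reached a mean of 1 FPKM and the highest single value was 0.74 FPKM, whereas 9 of 9 stromal fibroblast markers did. The study purified the cells by differential attachment and reports positive immunofluorescence for cytokeratin, which is protein evidence. The RNA values here thus do not show the epithelial identity of the cell description, and the difference between protein and RNA was not examined. The summed fibroblast markers lay at 15233 to 15346 FPKM in GB, below both CON (16786 to 17378) and GA (16978 to 17372). The list did not move as 1. Of its 9 genes, 1 rose and 4 fell against CON, and 1 rose and 5 fell against GA. Of all tested genes, 16.2% were higher and 17.3% lower against CON at a limma adjusted p under 0.05. Against GA, 9.87% were higher and 19.2% lower. PDGFRA was higher by 0.38 (limma adjusted p = 0.000415) and COL3A1 lower by 0.38 (limma adjusted p = 0.000277) against CON. The 7 immune markers summed to 32.93 to 39.27 FPKM in GB, 26.97 to 30.65 in CON and 29.19 to 31.28 in GA. Of the 4 immune markers tested, 1 rose and 0 fell in each comparison with GB. That gene was CD163 of macrophages, which rose by 1.79 against CON (limma adjusted p = 2.88e-06). The median log2FC of the 4 was 0.11 against CON and 0.062 against GA. The 5 endothelial markers summed to at most 3.44 FPKM, and CDH5 rose by 0.68 against GA (limma adjusted p = 0.0395), lost without GA1, GA2, GA3, GB1 or GB3 (up to 0.133). Whether these shifts had a part in the differences between GB and the other groups was not tested, and in such bulk samples fewer cells of a type and less RNA per cell cannot be told apart. The GC content of the reads, from the study's quality statistics, was higher in every CON library than in any GA or GB library.

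The 28 tested genes were all expressed, at levels that differed between genes. Their means over the 9 libraries ranged from 21.5 FPKM for NDC1 to 205.8 FPKM for SEC13, with a median of 43.6, and 26 of 28 lay between 20 and 80 FPKM. SEC13, which also serves in the COPII coat of vesicles leaving the endoplasmic reticulum, was the most abundant, and SEH1L, which like SEC13 also belongs to the GATOR2 complex of nutrient sensing, came next at 116.6 FPKM. NUP62 of the central channel followed at 75.4 FPKM. These are levels per length and can be set side by side between genes.

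**Figure D1:**
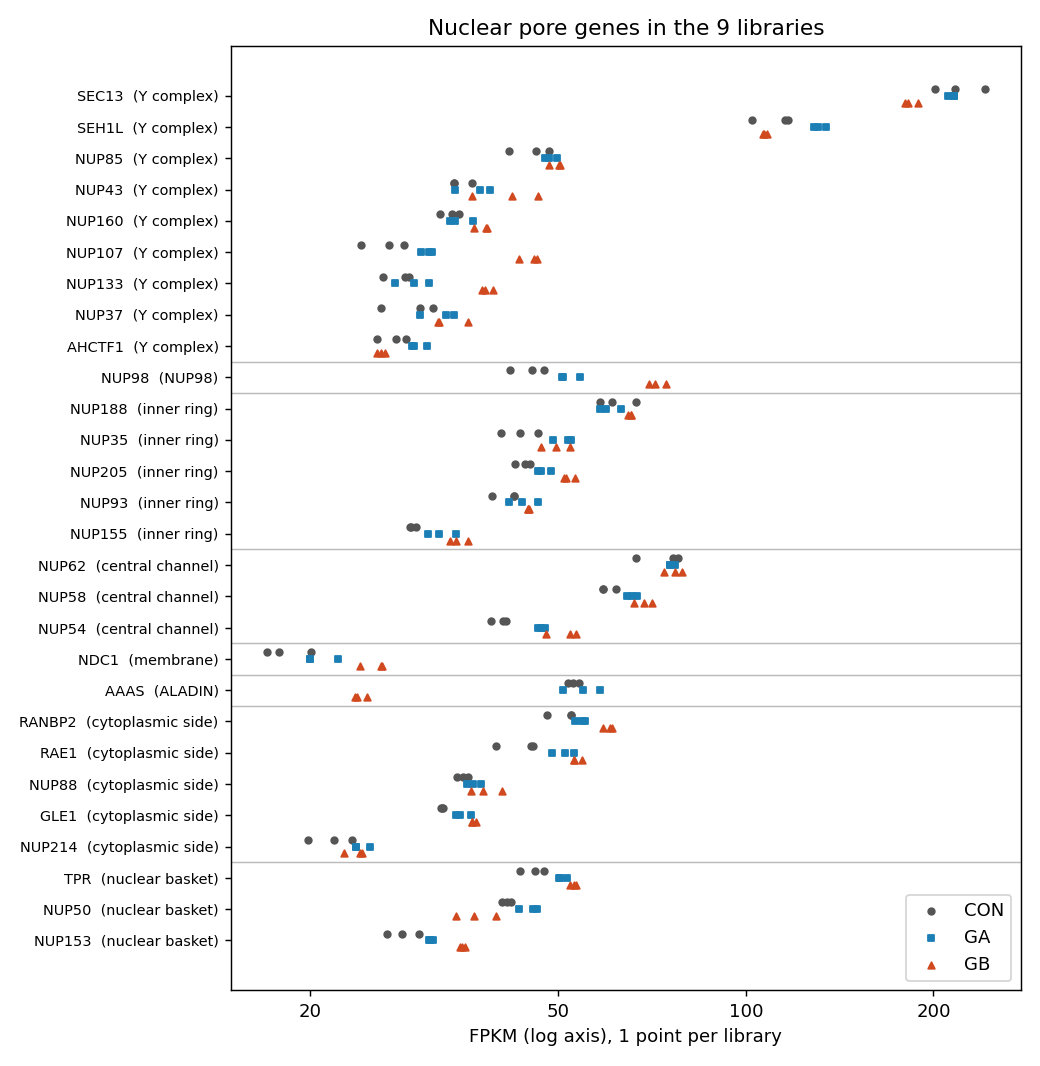
Level of each tested nuclear pore gene in each of the 9 libraries, in FPKM on a log axis, with genes ordered by their place in the pore and points coloured by group. SEC13 and SEH1L lie above the others, and AAAS is the gene whose GB points (23.58 to 24.66 FPKM) stand farthest below its CON and GA points (50.85 to 58.42 FPKM).

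AAAS encodes ALADIN, a WD-repeat nucleoporin that NDC1 recruits to the pore and that is mutated in triple A syndrome. Its level was 51.9, 52.81 and 54.02 FPKM in CON, 50.85, 54.77 and 58.42 in GA, and 23.74, 24.66 and 23.58 in GB. The 3 GB libraries lay within about 1 FPKM of each other and far under all 6 others, and CON and GA overlapped. The mean was 52.9 ± 1.06 FPKM in CON, 54.7 ± 3.79 in GA and 23.99 ± 0.583 in GB (SD, n = 3). The ratio of the GB mean to the CON mean was 0.453 and to the GA mean 0.439. On the log2(FPKM + 0.5) scale used for every log2FC here, AAAS differed by -1.12 (SE 0.06) between GB and CON and by -1.17 (SE 0.06) between GB and GA. Of the 12578 genes tested, 106 (0.843%) had a lower log2FC than AAAS against CON and 102 (0.811%) against GA. This rank is a description, since the family was chosen for the low AAAS level in GB. GA vs. CON, which the choice of family did not use, gave a log2FC of 0.045 (95% interval -0.08 to 0.17, limma adjusted p = 0.695).

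No other tested nuclear pore gene was lower in GB by as much as AAAS. In GB vs. CON, 15 of 27 were higher at an adjusted p under 0.05 (limma with Benjamini-Hochberg adjustment over all 12578 tested genes), against 16.2% of all tested genes. SEC13 was the 1 gene of 27 that was lower, against 17.3% of all tested genes. The median log2FC of the 27 was 0.19 beside -0.016 over all tested genes, and 23 of the 27 lay above that all-gene median. The same number had a positive sign (47.4% of all genes), and 4 had a negative sign (52.6%). The changes were small, and 0 of 27 passed |log2FC| above 1 with an adjusted p under 0.05 in either direction, where 2.94% of all genes were higher and 1.07% lower. All GB libraries lay above all CON libraries for 18 of 27 genes, against 22.2% of all tested genes, and below them for 2, NUP50 and SEC13, against 23.9%. With read GC content as a covariate, which in GB vs. CON cannot be fully told apart from group, NUP107 and NUP98 stayed past the threshold and the other 13 higher genes and SEC13 did not. Among all tested genes the same covariate took the higher calls from 2034 to 563 and the lower calls from 2178 to 909.

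**Figure D2:**
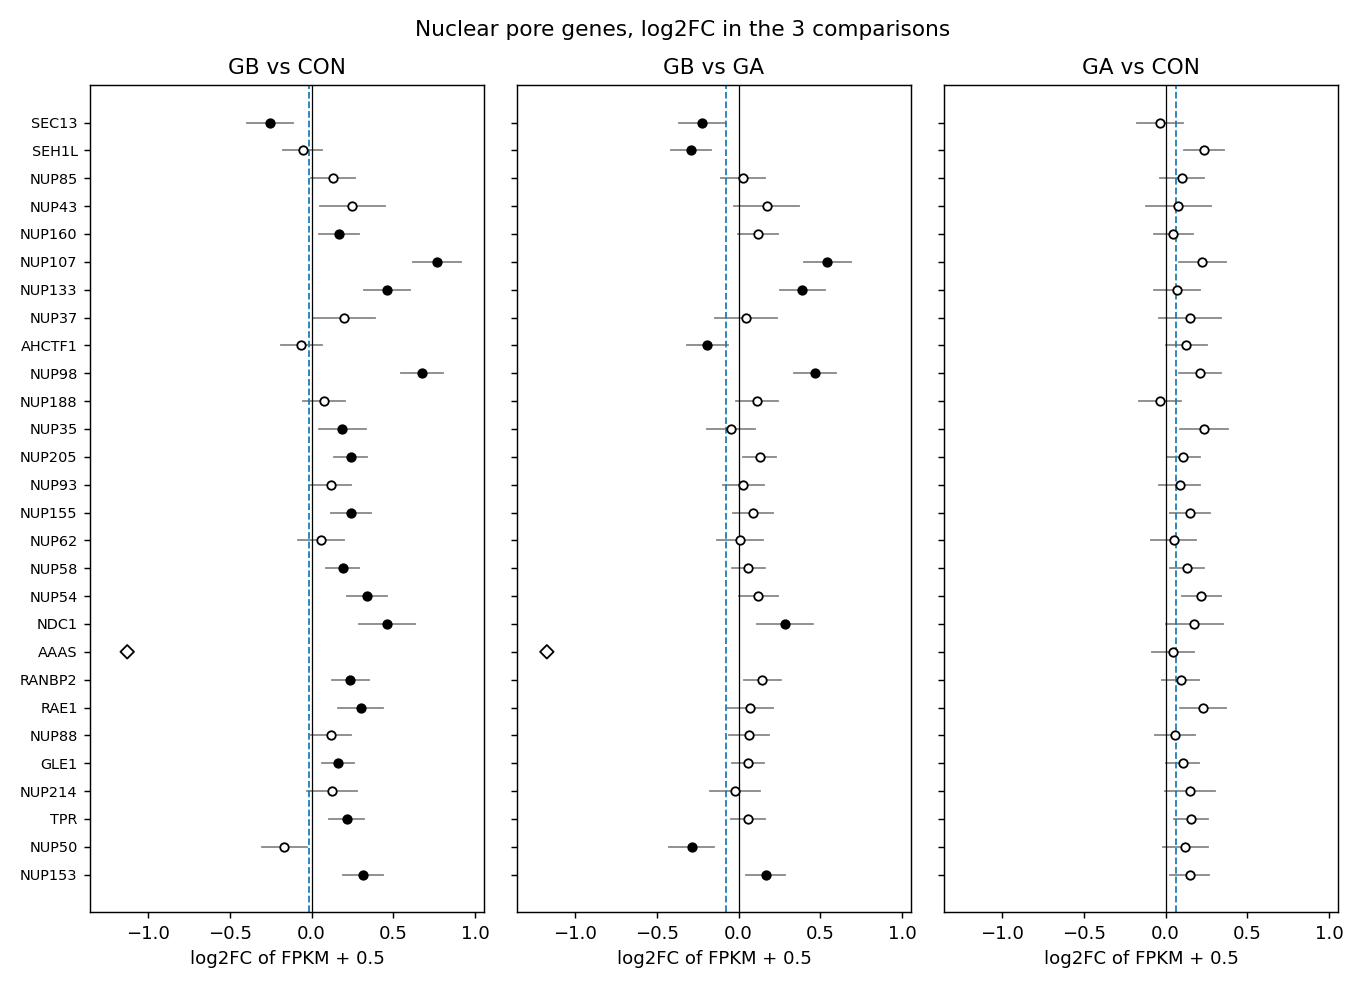
Log2FC of each tested nuclear pore gene in GB vs. CON, GB vs. GA and GA vs. CON, ordered by place in the pore, with 95% limma intervals as bars, filled points for an adjusted p under 0.05, open points for the rest and a dashed line at the median of all tested genes. AAAS is an open diamond without an interval in the comparisons with GB, at -1.12 and -1.17, while the other genes lie between -0.29 and 0.77 there.

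The Y complex is the scaffold ring of the pore, and its members went in both directions. Of its 9 measured members, 3 rose (NUP107, NUP133, NUP160) and 1 fell (SEC13) in GB vs. CON, and 2 rose and 3 fell in GB vs. GA. NUP107, in the stem of the Y, had the largest difference among the 27. Its level was 28.24, 24.11 and 26.73 FPKM in CON, 30.97, 30.14 and 31.3 in GA, and 43.3, 45.77 and 46.15 in GB. The groups were ordered CON, GA and GB with no overlap. NUP107 rose by a log2FC of 0.77 (SE 0.06, limma adjusted p = 2.18e-05) in GB vs. CON. It rose by 0.54 (limma adjusted p = 0.000262) in GB vs. GA, while GA vs. CON gave 0.22 with an adjusted p of 0.130.

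NUP133 binds NUP107 at the end of the stem and stood at 28.78, 26.2 and 28.32 FPKM in CON, 30.96, 27.32 and 29.32 in GA, and 37.71, 39.22 and 38.14 in GB. Only GB stood apart here, since CON and GA overlapped. It rose by 0.46 in GB vs. CON (limma adjusted p = 0.000485) and by 0.39 in GB vs. GA (limma adjusted p = 0.00147). NUP160, at the centre of the Y, rose less, by 0.17 in GB vs. CON (limma adjusted p = 0.0385). Its call was lost without CON1, CON3, GA2, GA3, GB1, GB2 or GB3, with adjusted p-values up to 0.113.

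SEC13 and SEH1L are small beta-propeller proteins of the Y complex, and both were lower in GB than in GA. SEC13 stood at 201.01, 241.6 and 216.64 FPKM in CON, 210.69, 215.86 and 216.13 in GA, and 180.11, 181.75 and 188.68 in GB. GB was the lowest group with no overlap, and CON was the most scattered. SEC13 fell by 0.26 in GB vs. CON (limma adjusted p = 0.0118) and by 0.22 in GB vs. GA (limma adjusted p = 0.0242). The GB vs. GA call was lost without GA1, GA2, GA3, GB1 or GB2, with adjusted p-values up to 0.0755. It was also lost with median-of-ratios factors (log2FC -0.15, limma adjusted p = 0.139).

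SEH1L stood at 115.53, 102.26 and 116.65 FPKM in CON, 130.57, 128.63 and 134.24 in GA, and 106.44, 107.97 and 106.96 in GB. The GA libraries were the high ones, and GB lay inside the range of CON. Accordingly SEH1L fell by 0.29 in GB vs. GA (limma adjusted p = 0.00359), but its log2FC in GB vs. CON was -0.055 (95% interval -0.18 to 0.07, adjusted p = 0.470). AHCTF1, also called ELYS, which seeds pore assembly on chromatin after mitosis, followed the same order at 27.46, 25.59 and 28.5 FPKM in CON, 29.07, 29.36 and 30.72 in GA, and 25.95, 25.62 and 26.35 in GB. It fell by 0.19 in GB vs. GA (limma adjusted p = 0.0296), a call that was lost without any single GA or GB library, with adjusted p-values up to 0.0989. Median-of-ratios factors lost this call too (limma adjusted p = 0.0957). The remaining Y members did not pass the test in any comparison. In GB vs. CON, NUP85 had a log2FC of 0.13, NUP43 of 0.25 (limma adjusted p = 0.0573) and NUP37 of 0.20.

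NUP98 is a mobile phenylalanine-glycine nucleoporin whose gene also encodes NUP96, a Y complex subunit cut from the same precursor, so its FPKM stands for both products. Its level was 45.44, 41.88 and 47.33 FPKM in CON, 50.86, 50.69 and 54.09 in GA, and 69.97, 71.48 and 74.3 in GB. As for NUP107, the groups rose in the order CON, GA and GB without overlap. NUP98 rose by a log2FC of 0.68 (SE 0.06, limma adjusted p = 2.31e-05) in GB vs. CON and by 0.47 (limma adjusted p = 0.000321) in GB vs. GA. GA vs. CON gave 0.21 with a limma adjusted p of 0.121. NUP98 was past the threshold in both comparisons with GB under all 21 alternative settings, the only member of which this held in both.

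Among inner ring and central channel genes every call was upward. In GB vs. CON 3 of 5 inner ring genes and 2 of 3 channel genes rose, and in GB vs. GA 0 of these 8 passed the test (NUP205 and NUP54 had unadjusted p-values under 0.05). NUP205, a large scaffold protein of the inner ring, was at 44.16, 42.52 and 45.0 FPKM in CON, 46.46, 46.96 and 48.71 in GA, and 50.97, 51.4 and 53.17 in GB. The groups did not overlap, and its log2FC in GB vs. CON was 0.24 (SE 0.045, limma adjusted p = 0.00359). NUP155, which links the inner ring to the membrane, was at 28.93, 28.98 and 29.55 FPKM in CON, 32.18, 30.92 and 34.2 in GA, and 33.44, 34.31 and 35.83 in GB. Its GA and GB libraries overlapped and both lay above CON, with a log2FC of 0.24 in GB vs. CON (limma adjusted p = 0.00825). NUP35, which binds the membrane and NUP155, had a log2FC of 0.19 in GB vs. CON with a limma adjusted p of 0.0485, a call lost without CON1, CON2, GA1, GA2, GA3, GB2 or GB3 (up to 0.151). NUP93 and NUP188, the other inner ring scaffold genes, did not pass the test in any comparison.

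Of the channel trio NUP62, NUP58 and NUP54, whose repeats line the passage, NUP54 differed most between GB and CON. It was at 40.69, 39.04 and 41.16 FPKM in CON, 46.9, 46.3 and 47.59 in GA, and 47.79, 52.22 and 53.46 in GB, so that all 3 groups stood apart. NUP54 rose by a log2FC of 0.34 (limma adjusted p = 0.00125) in GB vs. CON, and the value in GB vs. GA was 0.12 (limma adjusted p = 0.121). NUP58 rose by 0.19 (limma adjusted p = 0.0101) in GB vs. CON. NUP62, the third partner, gave 0.059 with a 95% interval of -0.080 to 0.198, and did not pass the test.

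NDC1 is the membrane nucleoporin that anchors the pore and holds ALADIN in place. Its level was 20.05, 17.79 and 17.05 FPKM in CON, 20, 20 and 22.14 in GA, and 23.99, 26.08 and 25.96 in GB. GB was the highest group with no overlap, while 1 CON library reached the GA range. NDC1 rose by 0.46 (limma adjusted p = 0.00166) in GB vs. CON and by 0.29 (limma adjusted p = 0.0206) in GB vs. GA, the latter call being lost without GA1, GA2, GB2 or GB3 (up to 0.0693). The ratio of AAAS to NDC1 lay between 0.908 and 0.990 in GB, against 2.59 to 3.17 in CON and 2.54 to 2.74 in GA. Within a library this ratio cannot be moved by scaling. It is given as a description, since the family was chosen for the low AAAS level in GB.

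The cytoplasmic side carries the filaments and the factors that strip exported mRNA of its carriers, and 3 of its 5 measured genes rose in GB vs. CON. RAE1, the mRNA export factor that binds NUP98, was at 39.66, 45.45 and 45.27 FPKM in CON, 51.23, 48.86 and 52.94 in GA, and 52.96, 52.94 and 54.58 in GB. Both treated groups lay above CON, and the lowest GB library equalled the highest GA library. RAE1 rose by 0.30 in GB vs. CON (limma adjusted p = 0.00540), and GB vs. GA gave 0.069 (limma adjusted p = 0.447). RANBP2, the filament protein that binds RANGAP1 and acts as a SUMO ligase, rose by 0.24 in GB vs. CON (limma adjusted p = 0.00544), and GB vs. GA gave 0.15 (limma adjusted p = 0.0525). GLE1, which activates the export helicase DDX19, rose by 0.16 in GB vs. CON (limma adjusted p = 0.0198), a call lost without GB1 or GB2 (up to 0.065). NUP88 and NUP214, which form the export platform on this face, had log2FC values of 0.12 and 0.13 in GB vs. CON and did not pass the test in any comparison.

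The nuclear basket held genes that moved in opposite directions. NUP153, which tethers the basket and receives importins, was at 28.06, 26.53 and 29.85 FPKM in CON, 31.42, 31.11 and 31.05 in GA, and 34.73, 35.07 and 35.41 in GB. The groups rose in that order with no overlap, and NUP153 rose by 0.31 in GB vs. CON (limma adjusted p = 0.00191). In GB vs. GA it rose by 0.17 (limma adjusted p = 0.0430), a call that was lost without CON1 or without any single GA or GB library, with adjusted p-values up to 0.109. TPR, the coiled-coil protein that builds the basket, rose by 0.21 in GB vs. CON (limma adjusted p = 0.00685). NUP50, which helps to unload importins, was at 42.02, 41.35 and 40.59 FPKM in CON, 45.59, 43.16 and 46.16 in GA, and 34.23, 39.71 and 36.6 in GB. All GB libraries were under all others, and NUP50 fell by 0.29 in GB vs. GA (limma adjusted p = 0.00718), while GB vs. CON gave -0.17 (limma adjusted p = 0.0630).

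**Figure D3:**
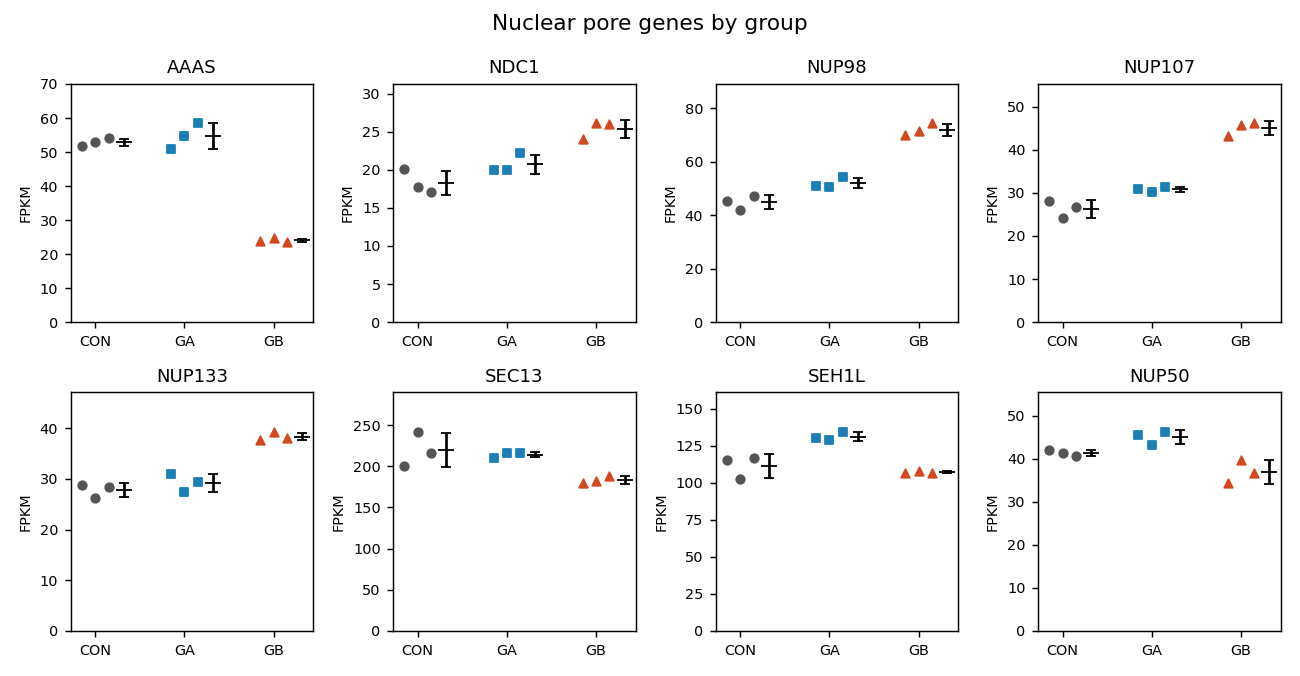
FPKM of selected nuclear pore genes in each library by group, with points for libraries and bars for the mean ± SD of 3 libraries. NUP107 and NUP98 step up from CON to GA to GB, AAAS, SEC13 and NUP50 are lowest in GB, and SEH1L is highest in GA.

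GB vs. GA compares cells given E2 and P4 with and without IFNT, which cannot be told apart from time in culture or with hormone. Here 5 of 27 genes rose (NDC1, NUP107, NUP98, NUP153 and NUP133), against 9.87% of all tested genes, and 4 fell (NUP50, AHCTF1, SEC13 and SEH1L), against 19.2%. The median log2FC of the 27 was 0.062 beside -0.075 over all tested genes, with 23 of 27 above the latter. As against CON, 0 of 27 passed |log2FC| above 1 (2.66% of all genes higher, 0.978% lower). The sign was positive for 21 of 27 (37.7% of all genes) and negative for 6 (62.3%). All GB libraries exceeded all GA libraries for 12 of 27 genes (15.7% of all genes) and were below them for 4 of 27 (31% of all genes). The split between directions depended on scaling. With median-of-ratios factors 13 of 27 rose and 2 fell, beside 1791 higher and 1594 lower genes overall in place of 1242 and 2409. NUP107, NUP98, NUP133, NUP50 and SEH1L kept their calls in GB vs. GA under all 21 alternatives.

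GA vs. CON compares cells given hormones with untreated cells, within the limits on collection time given above. Read GC content cannot be fully told apart from group here either, and with it as a covariate 0 of all tested genes were called. By limma with Benjamini-Hochberg adjustment 0 of 28 nuclear pore genes were called in either direction, where 0.246% of all tested genes were higher and 0.207% lower. At an unadjusted p under 0.05, 14 of 28 were higher and 0 lower, against 14.9% and 4.37% of all tested genes, and the GA libraries lay wholly above the CON libraries for 16 of 28 genes, against 18.6% of all tested genes, and wholly below for 0 of 28, against 6.13%. The sign was positive for 26 of 28 (66% of all genes) and negative for 2 (34%), NUP188 and SEC13, and it changed under at least 1 alternative setting for 15 of the 28. None of 28 passed |log2FC| above 1, where 0.0318% of all genes were higher and 0.0398% lower. Excluding AAAS, the median log2FC was 0.127 beside 0.061 over all tested genes. With median-of-ratios factors it was 0.068 beside 0.0034, and with the GC covariate 0.045 beside -0.012. The highest values were those of SEH1L at 0.24 (limma adjusted p = 0.0851), NUP35 at 0.23 (0.121) and RAE1 at 0.23 (0.115). All these comparisons share a group with another, so their counts are not independent.

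Among the 15 genes that rose in GB vs. CON, the total difference was divided between the hormone and the interferon steps in different ways. For 7 of them (NUP35, NUP54, GLE1, NUP58, RAE1, TPR and NUP155) the log2FC of GA vs. CON was larger than that of GB vs. GA, and for the other 8 it was smaller. These are values side by side under the main scaling, and the difference between the steps was not tested. Which step was larger depended on scaling. Over the 27 genes without AAAS, the main median was 0.127 for the hormone step and 0.062 for the interferon step. Median-of-ratios factors turned this order around, with 0.068 for the hormone step and 0.136 for the interferon step. The 7 genes are therefore not shown to be a set led by hormone.

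Ratios between genes of the same library show unequal change independently of scaling, for pairs that were chosen after their values were seen. NUP107 to SEH1L, both of the Y complex, stood at 0.407 to 0.431 in GB, against 0.229 to 0.244 in CON and 0.233 to 0.237 in GA. This ratio hardly varied among the 6 libraries without IFNT, and no GB library came near them. NUP133 to SEC13 reached 0.202 to 0.216 in GB from 0.108 to 0.143 in CON and 0.127 to 0.147 in GA. NUP98 to its partner RAE1 was 0.921 to 1.15, 0.993 to 1.04 and 1.32 to 1.36 in CON, GA and GB. The partners of these pairs thus differed unequally between GB and the other groups.

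The genes beside AAAS on the chromosome were examined in the order of the RefSeq table, which lists SP1, an lncRNA not analysed here and SP7 on one side and MYG1, PFDN5 and ESPL1 on the other, none overlapping AAAS. MYG1, next to AAAS, encodes an exonuclease of mitochondria and nucleoli. It stood at 26.11, 31.6 and 29.67 FPKM in CON, 34.15, 28.53 and 30.08 in GA, and 17.15, 17.06 and 18.21 in GB. As for AAAS, all GB libraries were low while CON and GA overlapped. MYG1 fell by 0.72 (SE 0.09, limma adjusted p = 0.000274) in GB vs. CON and by 0.80 (limma adjusted p = 0.000154) in GB vs. GA. With the GC covariate the GB vs. CON call was lost (limma adjusted p = 0.0677). SP1, a broadly expressed transcription factor, rose by 0.25 (limma adjusted p = 0.0130) in GB vs. CON, a call lost without GB2 (0.0516), with the GC covariate (0.0515) and with quantile normalization, and by 0.34 (limma adjusted p = 0.00347) in GB vs. GA. PFDN5, a prefoldin subunit, and ESPL1, the separase that opens sister chromatids, did not pass the test in either comparison with GB, and SP7 was at 0 to 0.59 FPKM and untested.

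**Figure D4:**
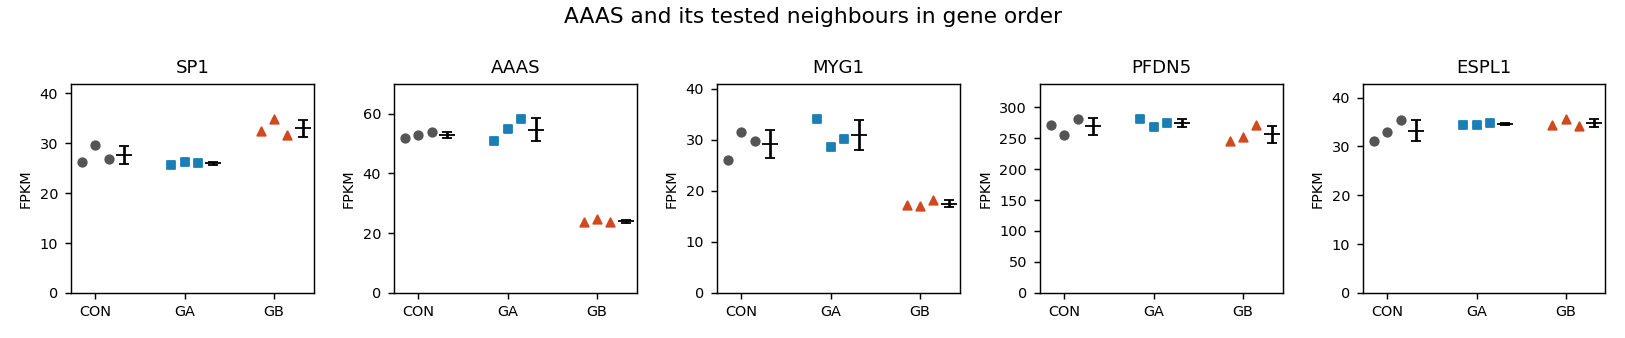
FPKM of AAAS and of its measured neighbours SP1, MYG1, PFDN5 and ESPL1 in each library by group, with bars for the mean ± SD of 3 libraries. AAAS and MYG1 (17.06 to 18.21 FPKM in GB) are low in all GB libraries, SP1 is high in them, and PFDN5 and ESPL1 overlap between the groups.

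The transport factors that use the pore were counted from lists of importins, exportins, the Ran cycle and mRNA export. None of their genes passed the test in GA vs. CON. The shares of all tested genes to read the counts against are 16.2% higher and 17.3% lower in GB vs. CON, and 9.87% higher and 19.2% lower in GB vs. GA. With the GC covariate the higher genes in GB vs. CON were 0 of 17 importins, 1 of 7 exportins (XPO1) and 1 of 19 mRNA export genes (DDX19B), and 0 genes of these lists or of the Ran cycle were lower, so IPO13, RANGAP1 and THOC6 lost their calls (limma adjusted p = 0.283, 0.123 and 0.120). Without it, 7 of 17 importins rose and 1 fell against CON (median log2FC 0.14), and 2 rose and 3 fell against GA (median 0.015). IPO7, an import receptor for ribosomal proteins among others, was at 157.4 to 177.64 FPKM in GB, above the 117.73 to 127.49 of CON and the 130.79 to 140.29 of GA. It rose by 0.43 (limma adjusted p = 0.000418) in GB vs. CON and by 0.29 (limma adjusted p = 0.00483) in GB vs. GA. KPNA2, the importin alpha of classical import signals, rose by 0.30 (limma adjusted p = 0.000550) in GB vs. CON. IPO13, which works in both directions, fell by 0.36 in GB vs. CON and by 0.41 in GB vs. GA (limma adjusted p = 0.0141 and 0.00862). In GB vs. GA, IPO4 rose by 0.16 (limma adjusted p = 0.0265), lost without any single GA or GB library (up to 0.0806), and IPO11 fell by 0.31 (0.0165), lost without GA1, GB1 or GB2 (up to 0.0609).

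Of 7 exportins, 3 rose against CON (median log2FC 0.18) and 2 against GA (median 0.021), and 0 fell in either. XPO1, the main export receptor for proteins with a leucine-rich signal, was at 60.08, 54.44 and 58.21 FPKM in CON, 68.68, 65.53 and 69.0 in GA, and 89.29, 90.51 and 95.97 in GB. Its groups rose in the order CON, GA and GB with no overlap, as those of NUP107 and NUP98 did. XPO1 rose by 0.67 (limma adjusted p = 1.36e-05) in GB vs. CON and by 0.44 (limma adjusted p = 0.000289) in GB vs. GA. XPO4 rose by 0.26 in GB vs. CON, lost without CON1, GB1 or GB3 (limma adjusted p = 0.0177, up to 0.0613), and by 0.25 in GB vs. GA, lost without GA1, GA2, GA3, GB1 or GB3 (limma adjusted p = 0.0253, up to 0.0829). Of 7 genes of the Ran cycle, which gives transport its direction, 0 rose and 1 fell in each comparison with GB, with medians of -0.022 and -0.046, a share near that of all genes (17.3% and 19.2% lower). That gene was RANGAP1, the GTPase activator bound to RANBP2, which fell by 0.29 (limma adjusted p = 0.00222) in GB vs. CON and by 0.30 (limma adjusted p = 0.00223) in GB vs. GA.

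Of 19 mRNA export genes, 7 rose and 1 fell against CON (median log2FC 0.078), and 4 rose and 2 fell against GA (median 0.115), beside 16.2% higher and 17.3% lower of all genes against CON and 9.87% and 19.2% against GA. With median-of-ratios factors 7 rose and 0 fell against GA. DDX19B, the helicase that GLE1 activates at the cytoplasmic face, was at 75.11, 75.39 and 74.79 FPKM in CON, 80.1, 72.37 and 74.6 in GA, and 105.27, 116.0 and 107.16 in GB. Only GB stood apart, and DDX19B rose by 0.54 (limma adjusted p = 6.84e-05) in GB vs. CON and by 0.53 (limma adjusted p = 9.00e-05) in GB vs. GA. Its near-identical paralogue DDX19A rose by 0.24 in GB vs. GA (limma adjusted p = 0.0194), lost without GA2, GA3, GB1 or GB2 (up to 0.0714), and how the counting divided reads between the pair is uncertain. NXT2, a partner of the export receptor NXF1, rose by 0.69 in GB vs. CON (limma adjusted p = 0.0258), lost without CON1, CON3, GB2 or GB3 (up to 0.0869). THOC6 of the THO complex fell by 0.25 in GB vs. CON (limma adjusted p = 0.00674). In GB vs. GA, PCID2 fell by 0.35, lost without GA1, GA2, GB1, GB2 or GB3 (limma adjusted p = 0.0325, up to 0.108), and NXT1 fell by 0.24, lost without GA1, GA3, GB1 or GB2 (limma adjusted p = 0.0320, up to 0.108).

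Of 18 genes of the nuclear lamina and envelope, 5 rose and 4 fell against CON (median log2FC 0.0093), and 2 rose and 4 fell against GA (median -0.020), where 16.2% and 17.3% of all genes were higher and lower against CON and 9.87% and 19.2% against GA. With the GC covariate 0 rose and 1 fell against CON, and with median-of-ratios factors 4 rose and 2 fell against GA. TOR1AIP2, an activator of torsins, was at 214.09 to 248.86 FPKM in GB, above the 123.02 to 156.17 of CON and the 165.67 to 188.37 of GA. It rose by 0.79 (limma adjusted p = 0.000248) in GB vs. CON and by 0.41 (limma adjusted p = 0.0111) in GB vs. GA. LMNA, which encodes lamins A and C, was among the most abundant genes of the lists at 1583.07 to 1667.8 FPKM in CON and 1243.39 to 1295.33 in GB, and fell by 0.36 (limma adjusted p = 7.05e-05) in GB vs. CON. Emerin (EMD), which binds the lamina, fell by 0.35 (limma adjusted p = 0.00715) in GB vs. GA and by 0.30 in GB vs. CON (limma adjusted p = 0.0138), the latter lost without GB3 (0.051). TMPO, which anchors lamins to chromatin, rose by 0.36 in GB vs. CON (limma adjusted p = 0.00721), and LMNB2, a B-type lamin, rose by 0.16 in GB vs. GA (limma adjusted p = 0.0214), lost without GA1, GA3 or GB3 (up to 0.0786).

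Of 6 nucleoporin-like genes outside the symbol rule, 3 were measured, and 3 of 3 rose in GB vs. CON and 2 of 3 in GB vs. GA, with medians of 0.64 and 0.36, beside 16.2% and 9.87% of all genes. With the GC covariate NUP62CL alone kept its GB vs. CON call, while NUPL2 (limma adjusted p = 0.138) and TMEM33 (0.130) lost theirs. NUPL2, the symbol under which the table lists NUP42, a cytoplasmic repeat nucleoporin that binds GLE1, was at 21.65, 17.51 and 21.23 FPKM in CON, 24.39, 22.45 and 24.15 in GA, and 33.63, 29.07 and 31.67 in GB. Its GB libraries were the highest with no overlap, and it rose by 0.64 (limma adjusted p = 0.000693) in GB vs. CON and by 0.40 (limma adjusted p = 0.00932) in GB vs. GA. NUP62CL, related to the end of NUP62, was low at 2.46 to 3.86 FPKM in CON and 5.6 to 7.43 in GB, and rose by 0.98 (limma adjusted p = 0.00191) in GB vs. CON. TMEM33, related to a pore membrane protein of yeast, rose by 0.28 (limma adjusted p = 0.0178) in GB vs. GA, lost without GA2 or GB3 (up to 0.0653).

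**Figure D5:**
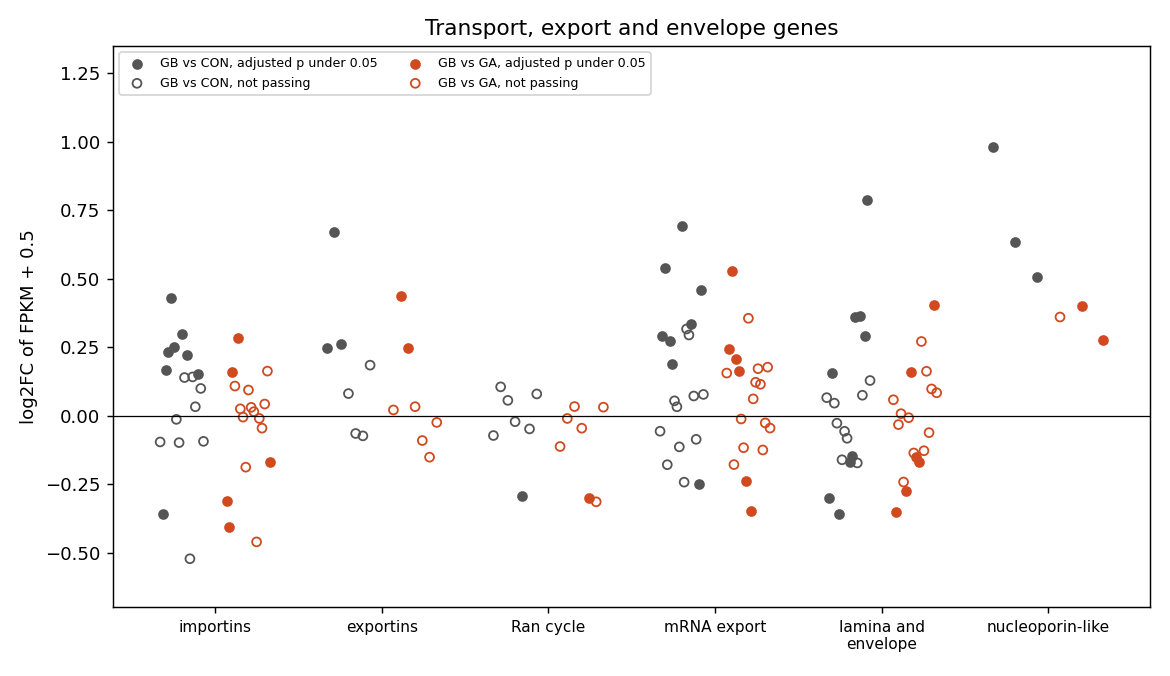
Log2FC of every tested gene of the transport, lamina and nucleoporin-like lists in GB vs. CON (grey) and GB vs. GA (orange), filled where the limma adjusted p was under 0.05. XPO1 (0.67 and 0.44) and TOR1AIP2 (0.79 and 0.41) are the highest genes of their lists in both comparisons, and RANGAP1 is the filled gene of the Ran cycle, at -0.29 and -0.30.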

How the data were processed

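Per the study's methods and processing notes, the authors trimmed reads of directional libraries with fastp 0.21.0, removed rRNA reads with Bowtie2 2.33, aligned the rest to ARS-UCD1.2 with HISAT2 2.2.1 and counted genes with RSEM 1.3.3, testing them with DESeq2 1.34.0. The sources do not state the annotation release or whether strand was used. The deposited values are FPKM per gene and library, calculated by the authors and written to 2 decimals. They hold no counts, so depth is unknown from the file, and low values are less precise. FPKM columns summed to 1395622 to 1442723.

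Here log2(FPKM + 0.5) was fitted, for genes averaging 0.5 FPKM or more, in R 4.3.3 with limma 3.58.1 (variance trend, group means, all 9 libraries, 6 residual degrees of freedom). Adjusted p-values are Benjamini-Hochberg over 12578 genes, with 0.05 as threshold. An exact permutation test of 3 against 3 libraries cannot go below 0.1 and was not used. The procedure was run on simulated data with independent values for each gene and library. These held no shared library or GC effects, so they cannot show how such effects bear on the calls. Plots were made with matplotlib 3.10.9 (Python 3.11.15).

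Groups came from the sample labels. The members, roles and lists were chosen with earlier results of these data known. Every member is named, in full the up to 12 called ones with the largest log2FC, and of each list the 2 called genes that rose most and the 2 that fell most. Neighbours of AAAS were taken from the RefSeq table of ARS-UCD2.0, for order only. Sequences were not used here. POM121 was not analysed here under its symbol. Alternatives tried were pseudocounts of 0.1 and 1, leaving the filter out or raising it to 1 FPKM, TPM rescaling, median-of-ratios factors, quantile normalization, no variance trend, only the groups compared, a replicate block, the GC content of reads from the study's quality statistics as a covariate, that covariate with the block, and omission of each library.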

Additional observations from a re-analysis of the deposited data

How the results depend on the processing

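Over the 21 alternatives the sign of log2FC changed at least once for 4 of 27 nuclear pore genes in GB vs. CON, 5 of 27 in GB vs. GA and 15 of 28 in GA vs. CON, and of the called values for SEC13 in GB vs. CON alone. The difference between the median of the 27 genes and that of all tested genes was 0.183 to 0.232 in GB vs. CON, 0.124 to 0.155 in GB vs. GA and 0.050 to 0.079 in GA vs. CON. In GB vs. CON, 15 higher genes became 2 with the GC covariate and 1 (NUP98) with the covariate and replicate block, and 13 to 14 when libraries were left out in turn. The 1 lower gene became 2 with TPM rescaling or quantile normalization and 0 with the GC covariate, with or without the block, and 1 to 2 when libraries were left out. SEC13 turned to 0.014 with the covariate and block (limma adjusted p = 0.954). The median of 0.19 became 0.13 with quantile normalization or the GC covariate and 0.167 to 0.222 when libraries were left out. In GB vs. GA, 5 higher and 4 lower genes became 13 and 2 with median-of-ratios factors, and 3 to 7 and 2 to 4 when libraries were left out. The median became 0.136 with median-of-ratios factors and 0.052 to 0.083 when libraries were left out. In GA vs. CON the median of 28 genes, 0.124, became 0.091 with TPM rescaling, 0.064 with median-of-ratios factors, 0.061 with quantile normalization, 0.040 with the GC covariate, 0.060 with covariate and block, and 0.102 to 0.140 when libraries were left out. AAAS stood at -1.20 with the GC covariate in GB vs. CON and -1.10 with median-of-ratios factors in GB vs. GA, and at -1.14 to -1.11 and -1.22 to -1.12 when libraries were left out. The cause of these shifts was not tested. Samples with the same replicate number did not deviate together (r = -0.031 to 0.077, 0 of 9 pairs over 0.1). A shared donor or culture of small effect could give such values too, so pairing by number was not excluded. With the replicate block 13 genes were higher and 1 lower in GB vs. CON, and 4 higher and 4 lower in GB vs. GA, with NUP35, NUP160 and NUP153 losing their calls. With 3 libraries a group and FPKM without counts, differences in low genes such as NUP210 could not be measured.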

Other observations

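Nuclear pores are built in interphase and rebuilt after mitosis, and the 24 cell cycle genes listed beside the nuclear pore genes also went in both directions in GB. Against CON 10 rose and 3 fell, against GA 6 rose and 7 fell, and in GA vs. CON 0 of 24 passed the test (limma with Benjamini-Hochberg adjustment). Of all tested genes 16.2% were higher and 17.3% lower against CON, and 9.87% higher and 19.2% lower against GA. PCNA, the sliding clamp of DNA replication, was at 227.07, 258.87 and 235.56 FPKM in CON, 248.31, 258.46 and 268.15 in GA, and 327.03, 323.84 and 340.85 in GB. It rose by 0.36 (limma adjusted p = 0.00127) in GB vs. GA. CCNE2, a cyclin of entry into S phase, rose by 0.54 (limma adjusted p = 0.000789) in GB vs. CON and by 0.44 (0.00278) in GB vs. GA, and CDK1, the mitotic kinase, rose by 0.51 (limma adjusted p = 0.00330) in GB vs. CON. With the GC covariate CDK1 stood at 0.11 (limma adjusted p = 0.565), and the GB vs. CON call of CCNE2 was lost as well (limma adjusted p = 0.109).

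CCNB1, the mitotic cyclin, was at 217.69, 193.71 and 200.11 FPKM in CON, 218.85, 220.34 and 222.09 in GA, and 173.69, 170.57 and 180.87 in GB, and fell by 0.33 (limma adjusted p = 0.000975) in GB vs. GA. PLK1, a mitotic kinase, and TYMS, which makes thymidylate for DNA synthesis, fell by 0.24 and 0.23 in GB vs. CON (limma adjusted p = 0.00399 and 0.00822), and both calls were lost with the GC covariate (limma adjusted p = 0.0572 and 0.168). BIRC5, survivin, fell by 0.33 in GB vs. GA (limma adjusted p = 0.0298), lost without GA1, GA2, GA3, GB1 or GB2 (up to 0.0951). With median-of-ratios factors the counts against GA were 9 higher and 2 lower, and with the GC covariate those against CON were 4 and 3. The part of the cell cycle in the nuclear pore differences was not tested.

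A gene listed by number that matches POM121C, a membrane nucleoporin outside the symbol rule, was looked up with its values in view. It stood at 14.75 to 17.88 FPKM in the 9 libraries, and GB vs. CON gave a limma adjusted p of 0.422.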
